A study of Bos taurus and Mus musculus with 16 samples.

Results

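Mouse morulae whose Tead4 gene had been targeted by base editing were compared with control morulae across all measured genes. The comparison used the 4 mouse samples among the 16 samples of the series, chosen by their labels, with 2 control and 2 edited samples. Every zygote had been given BE3 mRNA by injection, and embryos were collected on day 3.25 as morulae. BE3 is a base editor, a cytidine deaminase fused to a Cas9 nickase, that changes C to T at sites picked by a guide RNA. The edited zygotes also received a mix of single guide RNAs against Tead4, and the controls received no guide RNA, so loss of Tead4 and any other action of the guides cannot be told apart. The sources used here give neither the mouse strain, nor the number and sex of embryos per sample, nor the editing rate. Nothing says that replicates were separate litters or injections, so p-values here reflect the spread between libraries alone, and that spread may be technical. The other 12 samples are bovine blastocysts, 6 control and 6 edited, which enter only the last comparison.

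Tead4 encodes a DNA-binding protein that activates genes together with the co-activators Yap1 and Wwtr1, and the Hippo kinases keep these co-activators out of the nucleus. In the morula, outer cells with an apical surface have low Hippo activity and start the program of the trophectoderm, the epithelium that later pumps the blastocyst cavity and founds the placenta. Inner cells keep Hippo active and form the inner cell mass. A morula sample holds both kinds of cell, so a lower level of a transcript can mean fewer cells of a kind or less RNA per cell, and bulk RNA cannot tell these apart.

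The libraries held 3642907 to 6109425 reads assigned to genes, and 3 reads, the upper limit that a count of 0 allows, correspond to 2.13 to 3.79 normalized reads, counting error only. Values are read counts divided by a size factor for each library, called normalized reads here. Tead4 (chromosome 6, 128224288 to 128300823, minus strand, mm10) stood at 458 and 519 normalized reads in control libraries 1 and 2, and at 57.2 and 76.5 in edited libraries 1 and 2. It fell to 13.7% of the control level, so the labels matched the edited gene in all 4 libraries. All 12 markers of preimplantation embryos were expressed. Markers of cumulus and granulosa cells summed to at most 89.4 normalized reads in the controls and 120 in the edited libraries, blood markers to at most 79.3 and 168. Each kind had 2 tested markers and none passed. Without edited library 2 both blood markers passed as higher, and 1 did once each library's trend with transcript length was removed. Spermatozoa markers had no row in the table. On the log2 scale Pearson's r across genes was 0.967 between the controls, 0.958 between the edited libraries and 0.904 to 0.936 between groups.

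Of 11386 tested genes, those averaging 10 or more normalized reads over the 4 libraries, 1742 (15.3%) passed limma's test at a Benjamini-Hochberg adjusted p under 0.05. Among them 788 (6.92% of the tested genes) rose and 954 (8.38%) fell in edited morulae. The values of the control and edited libraries did not overlap for 6577 tested genes (57.8%). At least 4-fold changes were found for 118 genes that rose and 111 that fell, and at least 8-fold changes for 31 and 32. Without control library 1 or control library 2 the number of genes that passed was 580 and 601, and without edited library 1 or edited library 2 it was 1374 and 2588. In all 4 of these fits, in which a lone library is assumed to vary like the other group, 315 genes passed, 158 of them higher and 157 lower. Scaling every library to the same total moved the median of all genes to 0.12 and the share of higher genes among those that passed from 45.2% to 62.0%. Unless an exception is stated, each gene below that is said to have risen or fallen also passed in each of the 4 fits without 1 library and with the same total in every library, TMM factors, robust limma, edgeR and DESeq2. Where 4 counts follow a count of list members, they are the counts without control library 1, control library 2, edited library 1 and edited library 2, in that order. Every log2 fold change is on the scale of log2(normalized reads + 1), which understates the change of low genes, and is given ± its standard error with n = 2 per group.

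**Figure D1:**
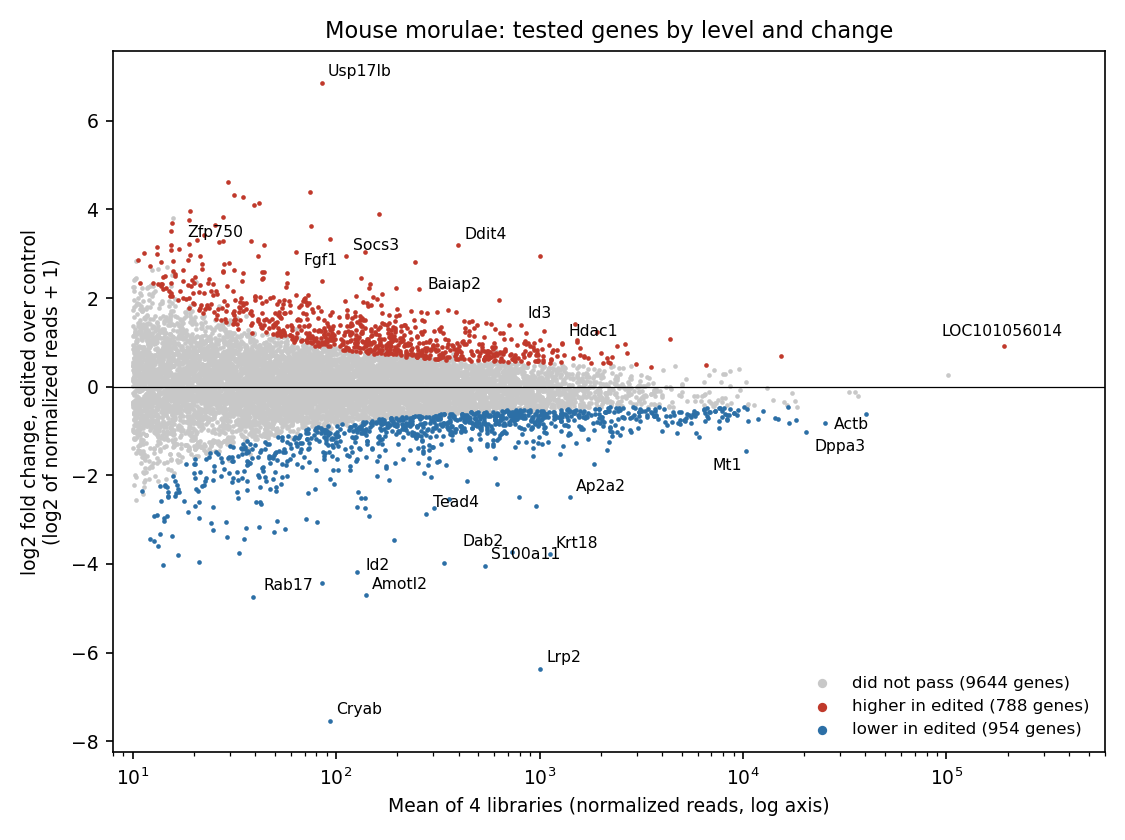
Mean level over the 4 libraries (horizontal, normalized reads on a log axis) against the log2 fold change of edited over control (vertical) for the 11386 tested genes, with one point per gene. The 788 genes that rose are red and the 954 that fell are blue. Lrp2 at -6.36, Cryab, which had no read in the edited libraries, and Usp17lb, which the control libraries hardly held, lie far from the rest, and the abundant transcripts Actb, Dppa3 and Mt1 lie below 0.

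Among the 10 most abundant transcripts that passed, 8 fell and 2 rose, and of these Actb and Dppa3 passed in all 4 fits without 1 library. Actb, the gene of cytoplasmic beta-actin, stood at 30701 and 33910.5 normalized reads in the controls and at 16264 and 20674 in the edited libraries, a log2 fold change of -0.82 ± 0.16 (adjusted p = 0.00122). Dppa3 (Stella), a maternal factor that protects DNA methylation in the early embryo, stood at 30357 and 24594 in the controls and at 14090.1 and 12775 in the edited libraries. It fell by 1.03 ± 0.16 on the log2 scale (adjusted p = 8.89e-05), or by 0.61 once each library's trend with transcript length was removed. The most abundant feature, the predicted locus LOC101056014, took 2.42% and 3.30% of the control reads and 7.20% and 4.73% of the edited reads. It passed with a log2 fold change of 0.92 ± 0.20 (adjusted p = 0.00227), but without control library 1 its adjusted p was 0.0939. Bhmt, which transfers a methyl group from betaine to homocysteine, passed in the same direction at 0.69 ± 0.17, and without control library 2 it stood at 0.45 with an adjusted p of 0.247.

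The largest fall among genes with a mean of at least 100 was in Lrp2 (chromosome 2, 69424340 to 69586065, minus strand), the gene of megalin, a very large endocytic receptor of absorbing epithelia. It stood at 1809 and 2162 normalized reads in the controls and at 26.7 and 19.8 in the edited libraries. This was 1.17% of the control level, a log2 fold change of -6.36 ± 0.24 (adjusted p = 9.85e-17). Amotl2 (chromosome 9, 102716672 to 102733418, plus strand) encodes an angiomotin that binds YAP and is itself a YAP-TEAD target. It went from 228 and 311 to 13.3 and 6.38, a log2 fold change of -4.70 ± 0.39. The edited mean of Amotl2 was 9.86, under the filter of 10. It was thus tested only because of its control values, and no adjusted p is given. Id2 (chromosome 12, 25093799 to 25097140, minus strand), a helix-loop-helix protein that blocks DNA binding of its partners, went from 198 and 286 to 12.4 and 12. The rule that chose these 3 genes asked for no overlap between groups. Their edited libraries lay close together for Id2, while for Amotl2 they differed by 0.96 on the log2 scale. Cryab (chromosome 9, 50751325 to 50756636, plus strand), the gene of the small heat shock protein alpha B-crystallin, averaged under 100 and was chosen after its values were seen. It stood at 210.1 and 162 normalized reads in the controls and had no read in either edited library, where a count of 0 allows up to 2.86 and 2.13 normalized reads. Its edited level was at least 74.6-fold lower, taking the mean of these limits of 3 reads per library. Cryab too was tested only because of its control values, and no adjusted p is given. Of the genes that passed, 1 had no read in both edited libraries, which was Cryab, and 0 had no read in both controls.

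S100a11, a small calcium-binding protein, fell from 882 and 1147 normalized reads to 40 and 90.7, and Ptges, the membrane prostaglandin E synthase, from 580.0 and 703 to 35.3 and 44.7. Trp53bp2, which encodes the polarity and p53-binding protein ASPP2, fell from 307 and 402 to 36.2 and 26.9. Dusp4, a phosphatase that switches off nuclear ERK, fell from 241 and 199.8 to 23.8 and 43.9. The 4 genes reached between 6.23% and 15.4% of their control levels. Bmyc, a Myc relative that lacks the DNA-binding domain, was the most abundant of the next group and fell from 1696 and 1614 to 181 and 362. Clic3, a chloride intracellular channel protein, and Tcf15, a helix-loop-helix factor of early differentiation, fell to 14.6% and 17.8% of control. Serpinb9b, a granzyme inhibitor gene, had 249 in both controls, and its edited libraries were far apart at 16.2 and 63.1.

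**Figure D2:**
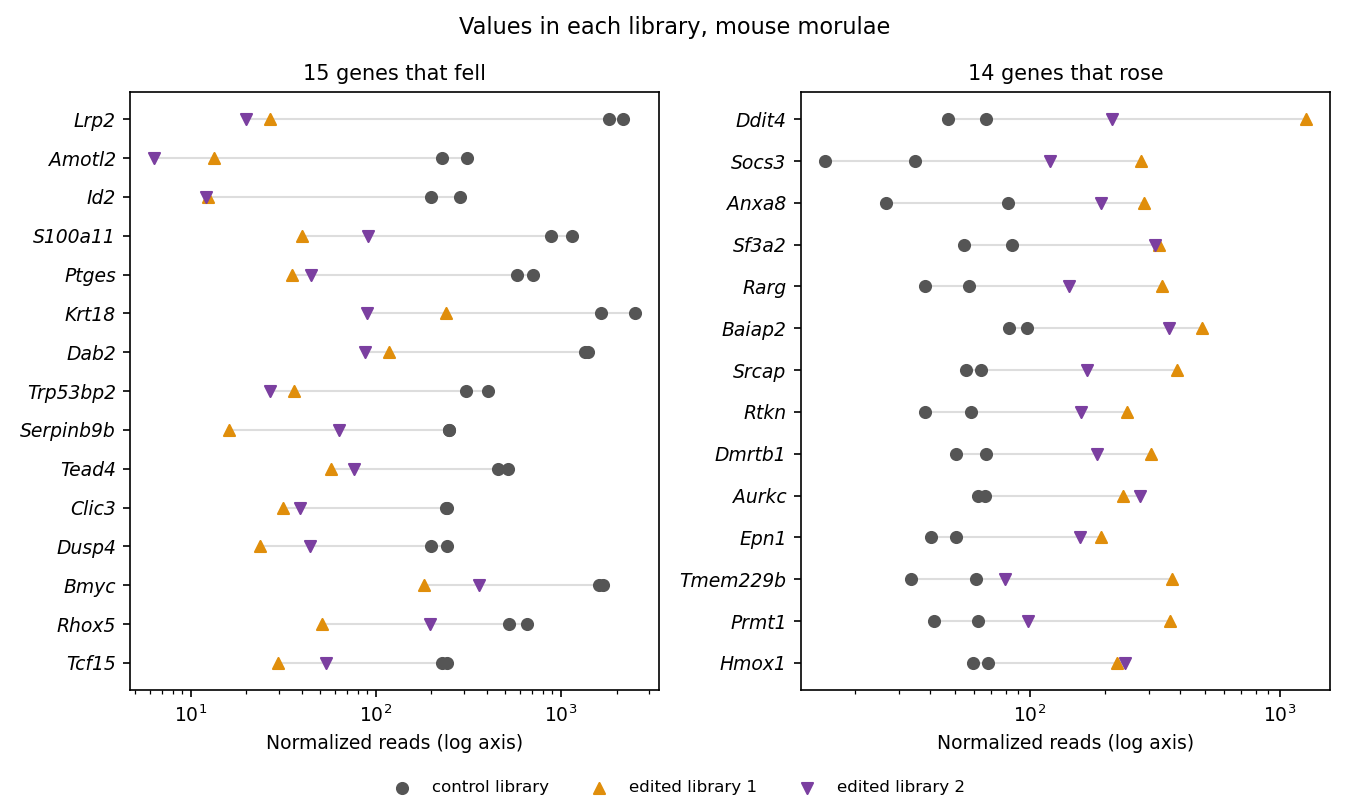
Normalized reads in each library (horizontal, log axis) for the 15 genes that fell most and 14 of the 15 that rose most among genes with a mean of at least 100. Grey circles are control libraries and triangles the edited libraries. The 29 genes were chosen for no overlap between groups, so their edited libraries lie on the same side of both controls. For Ddit4, Tmem229b and Prmt1 edited library 1 lies far beyond edited library 2.

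The genes that rose most were of mixed function. Socs3, the feedback inhibitor of LIF and STAT3 signalling, stood at 34.6 and 15.2 normalized reads in the controls and at 279 and 120.5 in the edited libraries, a log2 fold change of 2.94 ± 0.40 (adjusted p = 1.64e-05). Baiap2 (IRSp53), which bends membranes into actin protrusions, rose from 82.7 and 97.4 to 487 and 361, a log2 fold change of 2.21 ± 0.24. No overlap between groups was part of the rule that chose the genes of this paragraph. Rarg, a retinoic acid receptor, rose from 57 and 37.9 to 339 and 144, and Srcap, the ATPase that deposits the histone variant H2A.Z, from 63.7 and 55.7 to 388 and 169. Aurkc, a kinase of meiosis and early cleavage, rose from 65.9 and 62 to 236 and 275. Rtkn and Dmrtb1, a DM-domain factor, rose 4.22-fold and 4.19-fold. Hmox1, the heme oxygenase induced by oxidative stress, rose 3.64-fold, with 224 and 240.3 in the edited libraries.

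A few of the largest rises rested on fewer libraries. Ddit4, a stress-induced inhibitor of mTORC1, had the largest value of the 15 at 3.19 ± 0.43, with 46.9 and 67 normalized reads in the controls and 1270.0 and 213 in the edited libraries. Without edited library 1 it was 1.90, and robust limma gave an adjusted p of 0.261. Tmem229b, with 372 and 79.4 in the edited libraries, stood at 1.91. It was at 0.80 without edited library 1 (adjusted p = 0.23) and at 3.01 without edited library 2, and its adjusted p was 0.0881 without control library 1. Prmt1, an arginine methyltransferase, stood at 1.88, and without edited library 1 at 0.95 with an adjusted p of 0.104. Robust limma gave adjusted p of 0.282 and 0.0913 for Tmem229b and Prmt1, and DESeq2 0.169 and 0.11. Anxa8, an annexin, stood at 2.31, and DESeq2 gave it an adjusted p of 0.0504. Without control library 2 Anxa8 was at 1.52.

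Endocytic uptake and vesicle transport genes differed by member. The shares that passed, 21.4% of endocytic receptors and 17.4% of adaptor and clathrin genes, lay near the 15.3% of all tested genes. Of 14 tested endocytic receptors and their partners, 2 fell (1, 2, 2 and 1 without 1 library) and 1 rose (0, 0, 1 and 1), and with the same total in every library 1 fell and 2 rose. Beside Lrp2, the megalin chaperone gene Lrpap1 passed at -0.55 and the megalin partner gene Cubn at 0.83, but neither call lasted. Without control library 1 Lrpap1 was at -0.31 (adjusted p = 0.505), and it did not pass without edited library 2 or with the same total either. Cubn did not pass without control library 1, control library 2 or edited library 1, with adjusted p of 0.218, 0.201 and 0.437, and was at 0.44 in the last of these. Dab2, the adaptor that links megalin to clathrin, fell from 1345 and 1394 normalized reads to 118 and 87.9, a log2 fold change of -3.73 ± 0.21 (adjusted p = 1.54e-12). Ap2a2, the alpha 2 subunit of the AP-2 clathrin adaptor, fell from 2295 and 2496 to 395 and 459, a log2 fold change of -2.49 ± 0.18. Among 23 tested adaptor and clathrin genes these were the 2 that fell (2, 2, 2 and 5 without 1 library), and 2 rose (1, 1, 1 and 3). Epn1 (epsin 1), an adaptor that bends the membrane of clathrin pits, rose from 40.2 and 50.6 to 193 and 158.

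Rab17, a GTPase of recycling and transcytosis in polarized epithelia, fell from 177 and 147 normalized reads to 2.86 and 13.5, a log2 fold change of -4.44 ± 0.50 (adjusted p = 9.05e-07). The lower of its edited values equals the 3-read limit. Rab4a, of fast recycling from early endosomes, fell from 67 and 81 to 12.4 and 20.6. Rab2a, of transport between the endoplasmic reticulum and the Golgi, fell from 795 and 792 to 273 and 359. The recycling genes Rab17 and Rab4a thus fell together with the uptake genes Lrp2, Dab2 and Ap2a2.

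Keratins, S100 proteins and annexins form or bind the cortical cytoskeleton of epithelia. Of 5 tested keratins, Krt18 and Krt8, which pair into the first intermediate filaments of the embryo, fell and none rose. Krt8 fell from 2793 and 2878 normalized reads to 719 and 994, a log2 fold change of -1.74 ± 0.18 (adjusted p = 1.36e-07). Krt18 went from 1643 and 2516 to 239 and 89.3, a log2 fold change of -3.79 ± 0.28, and robust limma gave an adjusted p of 0.0552. Scaled by length, the pair stood level in the controls at 312 RPKM each, and at 103 for Krt8 and 27.1 for Krt18 in the edited libraries. S100a10 fell from 237 and 368.1 to 79.1 and 99.2, and its annexin partner Anxa2 from 650.4 and 765 to 111 and 232, log2 fold changes of -1.73 ± 0.26 and -2.13 ± 0.25. These proteins form 1 complex under the plasma membrane. Anxa3 fell from 71.5 and 56.9 to 1.91 and 11.3. Annexins did not move one way: of 8 tested 2 fell and 2 passed as higher (1, 1, 2 and 1 without 1 library), Anxa8 among them, and 4 had positive and 4 negative fold changes. Of 5 tested S100 genes 2 fell and none rose. In these small lists 40% of keratins, 50% of annexins and 40% of S100 genes passed, beside 15.3% of all tested genes.

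Of 43 tested actin-binding genes, 11 fell and 4 rose, with a list median of -0.27, beside a median close to 0 over all genes. Leaving out 1 library gave 6, 4, 10 and 18 that fell and 1, 1, 6 and 4 that rose. The calponins Cnn2 and Cnn3, which bind actin and restrain myosin, fell to 20.4% and 41.9% of control. Cnn3 was the more abundant, with 2230.4 and 2043 normalized reads in the controls and 810.4 and 979 in the edited libraries. Tmsb10, a small protein that holds actin monomers, fell from 5928 and 6844 to 3321 and 2879, and Myo1c, a myosin that links membranes to actin, from 209 and 279.5 to 66.7 and 97.8. In the other direction Fscn1 (fascin), which bundles actin in protrusions, rose from 96.1 and 147 to 315 and 313, a log2 fold change of 1.39 ± 0.25 (adjusted p = 0.000371). Of 18 tetraspanins and claudins 4 fell (2, 1, 3 and 5 without 1 library) and 1 rose (0, 1, 1 and 1). The shares that passed were 34.9% of actin-binding genes and 27.8% of tetraspanins and claudins, beside 15.3% of all tested genes. Tspan8, a tetraspanin of epithelia, fell from 73.8 and 73.4 to 10.5 and 12.

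The signalling lists had shares of members that passed near the 15.3% of all genes: 21.7% for FGF and ERK, 15.4% for LIF and STAT, 13.6% for Wnt and 17.6% for TGF-beta, Nodal and BMP. Of 23 tested genes of FGF and ERK signalling 2 rose (1, 2, 4 and 3 without 1 library) and 3 fell (2, 1, 3 and 4). Fgf1, a ligand of all FGF receptors, rose from 21.2 and 7.59 normalized reads to 116 and 108, a log2 fold change of 3.03 ± 0.44 (adjusted p = 3.75e-05), while the ERK phosphatase Dusp4 fell as described above. Etv5, a target of ERK, passed with 96.1 and 121 in the controls and 221 and 282 in the edited libraries, but without control library 1 its adjusted p was 0.0671. Of 13 tested LIF and STAT genes 2 rose (1, 1, 1 and 4), Socs3 among them, and none fell. Of 22 tested Wnt genes 3 fell (0, 0, 1 and 3) and none rose (0, 0, 2 and 2), with 15 positive fold changes and a median of 0.34. With the same total in every library 3 Wnt genes rose and 2 fell, so the direction of this count turned. Of 17 tested genes of TGF-beta, Nodal and BMP signalling 2 fell (1, 0, 1 and 4) and 1 rose (1, 1, 1 and 2), and with the same total 1 fell and 2 rose. Acvr2b, a type II receptor of activin and Nodal, passed at -1.38. Its adjusted p was 0.0733 without control library 2, and it was at -0.83 without edited library 1.

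The Id genes, which are targets of BMP signals, moved in both directions. Id3 rose from 475 and 412 normalized reads to 1007 and 1362, a log2 fold change of 1.40 ± 0.19 (adjusted p = 1.7e-05), while Id2 fell to 5.05% of control. The other transcription factors that fell include Gata3, a trophectoderm factor, with 1012 and 1013 in the controls and 257 and 187 in the edited libraries. Elf3, an epithelial Ets factor, fell from 1322 and 1581 to 458 and 754. In their lists more members rose than fell, 5 and 2 of 31 tested Gata, Sox, Fox and Tfap2 factors. For Ets and grainyhead factors it was 3 and 1 of 18, and for Klf and Sp factors 3 and 1 of 17. The shares that passed were 22.6%, 22.2% and 23.5%, beside 15.3% of all genes. Klf2, a factor of naive pluripotency, rose from 121 and 128 to 398 and 249. Pou5f1 (Oct4) and Tdgf1 (Cripto, the Nodal co-receptor) rose 2.64-fold and 2.59-fold. These 3 belong to a list of 21 tested inner cell mass and epiblast markers, of which 6 rose (4, 5, 4 and 6 without 1 library) and 2 fell (1, 2, 2 and 6). The list had 12 positive and 9 negative fold changes and a median of 0.08, and 38.1% of its members passed. Of 22 tested nuclear receptors 4 rose and none fell, a share of 18.2% beside 15.3% of all genes. Their median was 0.58, and 20 had a positive fold change. With 1 library left out 1, 2, 2 and 5 rose, and Rarg was the member that passed in all of these fits.

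**Figure D3:**
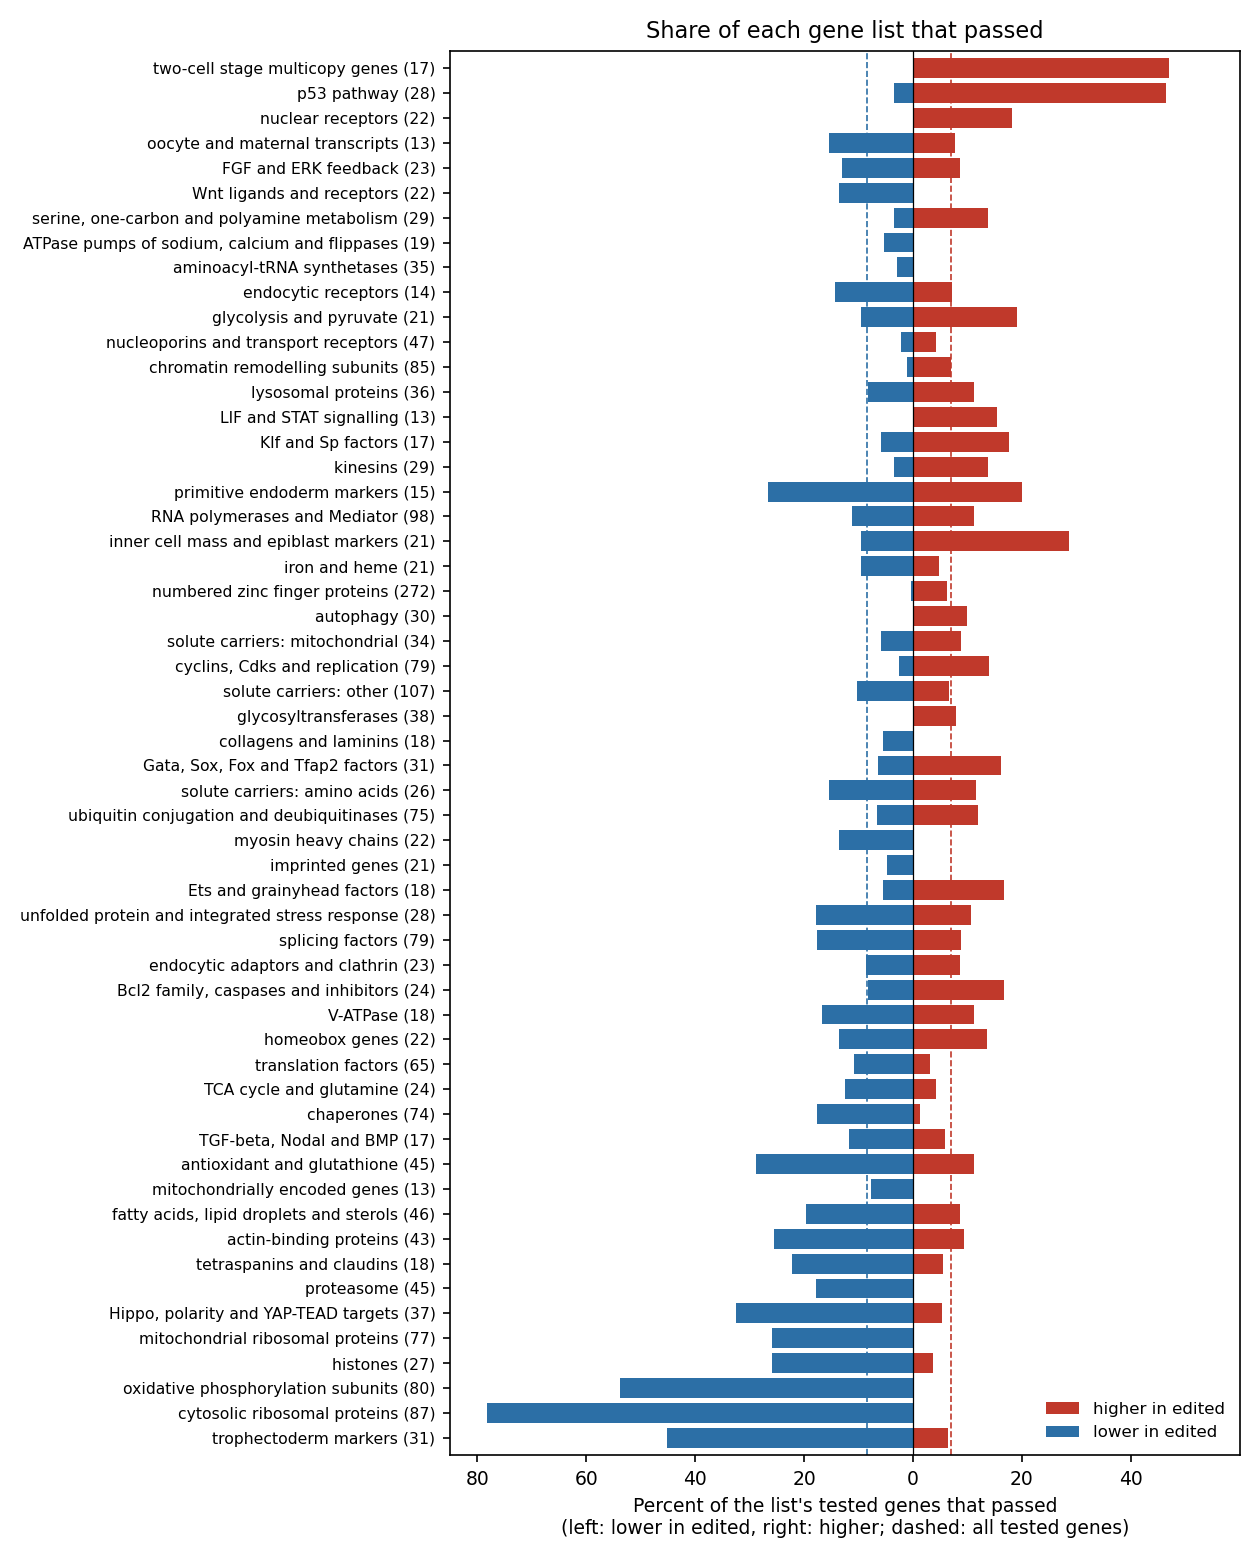
Percent of the tested genes of each list shown that passed, with genes lower in edited morulae to the left in blue and genes higher to the right in red, for lists with at least 13 tested genes (number in brackets) ordered by their median log2 fold change. Dashed lines mark the 8.38% lower and 6.92% higher among all 11386 tested genes. Cytosolic ribosomal proteins reach 68 of 87 on the left, and p53 pathway genes 13 of 28 on the right.

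Solute carriers are the membrane transporters of small molecules. Of 26 tested amino acid carriers 3 rose (1, 1, 4 and 4 without 1 library) and 4 fell (2, 2, 2 and 5). Of 34 mitochondrial carriers 3 rose (2, 2, 3 and 3) and 2 fell (1, 0, 0 and 3). Of 107 others 7 rose (3, 1, 7 and 13) and 11 fell (2, 2, 12 and 13), a share of 16.8% beside 15.3% of all genes. With the same total in every library 4 amino acid carriers rose and 2 fell, 4 mitochondrial carriers rose and 1 fell, and 10 others rose and 9 fell. The shares that passed were 26.9% of amino acid carriers and 14.7% of mitochondrial carriers. Slc6a13, a carrier of GABA and taurine, fell from 83.8 and 68.3 normalized reads to 6.67 and 8.51, a log2 fold change of -3.17 ± 0.48. Slc5a11, a carrier of inositol, fell from 970.0 and 779 to 372 and 409. Slc6a8, the X-linked creatine carrier, fell from 1686 and 2153 to 891 and 921. The mitochondrial carriers Slc25a12, which exchanges aspartate and glutamate, and Slc25a22, which imports glutamate, rose from 42.5 and 30.4 to 131 and 122.6 and from 129 and 119 to 440.5 and 279. Both carry glutamate across the inner membrane.

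Of 45 tested genes of antioxidant defence and glutathione 13 fell (7, 7, 12 and 17 without 1 library) and 5 rose (2, 2, 6 and 3). This was a share of 40%, beside 15.3% of all tested genes. Gsta4, a glutathione transferase that removes lipid peroxidation products, fell from 116 and 172 normalized reads to 16.2 and 16.3, a log2 fold change of -3.04 ± 0.37 (adjusted p = 3.37e-06). Akr1b8, an aldo-keto reductase, fell from 1381 and 1326 to 208 and 274. The metallothioneins Mt1 and Mt2, which bind zinc and copper, were among the most abundant transcripts. Mt1 fell from 17671 and 12675 to 5421 and 5509 and Mt2 from 8875 and 7877 to 3738 and 3851, log2 fold changes of -1.45 ± 0.17 and -1.14 ± 0.16. With the length trend removed Mt2 was at -0.65. Prdx6, a peroxiredoxin, fell to 49% of control. Hmox1 moved the other way, as given above.

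In metabolism the hexokinase genes moved in opposite directions. Hk2 fell from 419 and 399.7 normalized reads to 169 and 159, a log2 fold change of -1.31 ± 0.22 (adjusted p = 0.000169), and Hk1 rose from 104 and 75.9 to 284 and 262, one of 1.61 ± 0.26 (adjusted p = 0.000102). Both enzymes phosphorylate glucose. Scaled by length, Hk2 stood at 14.8 and Hk1 at 2.27 RPKM in the controls, and at 6.47 and 7.53 in the edited libraries. Of 21 tested genes of glycolysis 4 rose (2, 1, 4 and 5 without 1 library) and 2 fell (1, 1, 2 and 7). Of 46 tested genes of fatty acids, lipid droplets and sterols 4 rose (1, 1, 6 and 1) and 9 fell (5, 2, 4 and 19), or 5 with the same total in every library. The shares that passed were 28.6% of the glycolysis list and 28.3% of the lipid list, beside 15.3% of all tested genes. Fabp3, a fatty acid carrier protein, fell from 1960.0 and 1771 to 686 and 624. Dgat2, which makes the triglyceride of lipid droplets, rose from 50.3 and 63.2 to 141 and 239. Genes of serine, one-carbon and polyamine metabolism had 4 of 29 tested higher and 1 lower, a share of 17.2%. Odc1, the first enzyme of polyamine synthesis, fell from 5928 and 4742 to 2406 and 2964.

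Most genes of the cytosolic ribosome and many of the respiratory chain fell, by small amounts. Among all tested genes 8.38% fell. Of 87 tested cytosolic ribosomal protein genes 68 fell and none rose, with a median of -0.60, and together they took 12.3% and 11.7% of the control reads and 8.37% and 8.98% of the edited reads. Of 80 oxidative phosphorylation subunits encoded in the nucleus 43 fell and none rose, also with a median of -0.60, while of 13 genes encoded in mitochondria 1 fell. Of 77 mitochondrial ribosomal protein genes 20 fell. These counts depended on the library left out: in the order given above, 11, 19, 58 and 73 cytosolic ribosomal, 5, 16, 34 and 56 oxidative phosphorylation and 1, 4, 15 and 37 mitochondrial ribosomal genes fell. With the same total in every library 58, 32 and 11 fell, and the medians were -0.47, -0.47 and -0.30, where the median of all genes was 0.12.

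Transcript length moved with the comparison, which touches these groups because their transcripts are short. Among the 1068 tested genes with the shortest exonic length, 66 to 1602 bases, 270 fell and 51 rose, with a median log2 fold change of -0.42. Among the 1069 with the longest, 9912 bases and more, 33 fell and 58 rose, with a median of 0.09. With the length trend of each library removed, 41 cytosolic ribosomal, 20 oxidative phosphorylation and 9 mitochondrial ribosomal genes fell. The medians were then -0.41, -0.40 and -0.27. The part of length in these results was not tested further.

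RNA processing and transcription genes moved in both directions. Of 79 tested splicing factors 14 fell (2, 3, 10 and 21 without 1 library) and 7 rose (2, 2, 6 and 7), and with the same total in every library 9 fell and 9 rose. Snrpd3, a core protein of the spliceosomal small RNA particles, fell from 1286 and 1111 normalized reads to 445 and 575, and Hnrnpab, an RNA-binding protein, from 3398 and 3028 to 1429 and 1745. Sf3a2 and Sf3b4, which are subunits of the U2 particle that recognises the branch point, rose. Sf3a2 stood at 54.8 and 84.7 in the controls and at 329.9 and 315 in the edited libraries, a log2 fold change of 2.23 ± 0.27 (adjusted p = 2.33e-06), and Sf3b4 rose from 297 and 328 to 690.3 and 1001. Of 98 genes of RNA polymerases and Mediator 11 rose (2, 1, 7 and 14) and 11 fell (1, 2, 6 and 17), and with the same total 14 rose and 6 fell. Of the splicing factors 26.6% passed and of the polymerase and Mediator genes 22.4%, beside 15.3% of all genes. Polr2i, a small subunit of RNA polymerase II, fell to 44.2% of control, and Taf6, a subunit of the initiation factor TFIID, rose 3.33-fold.

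In protein folding, 13 of 74 tested chaperones fell (3, 4, 8 and 17 without 1 library) and 1 rose (1, 1, 5 and 2), and with the same total in every library 8 fell and 6 rose. Hspb1 (Hsp27), a small heat shock protein that also protects actin, fell from 267 and 377 normalized reads to 120.1 and 86.5. Hsp90b1, the HSP90 of the endoplasmic reticulum, fell from 2079.6 and 1963 to 1229 and 977, and Hspa2, an HSP70 of germ cells, rose from 19 and 27.8 to 129.7 and 77.3. Of 45 proteasome genes 8 fell (0, 1, 2 and 20) and none rose, and with the same total 4 fell and 1 rose. The shares that passed, 18.9% of chaperones and 17.8% of proteasome genes, lay near the 15.3% of all genes. Genes of ubiquitin conjugation and deubiquitinases moved both ways, with 9 of 75 tested higher and 5 lower, a share of 18.7%. The ubiquitin-conjugating enzyme genes Ube2h and Ube2s fell to 29.3% and 42.8% of control. Neu1, the lysosomal sialidase, fell from 169 and 212 to 70.6 and 48.2, while Ctsb, the lysosomal protease cathepsin B, rose from 425 and 376 to 748 and 829.

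Zinc finger genes numbered as Zfp, many of which repress retroelements, were a large list with few calls. Of 272 tested, 17 rose (12, 5, 14 and 22 without 1 library) and 1 fell (0, 0, 4 and 10), a share of 6.62% beside 15.3% of all genes, with a median of 0.07. Zfp750, a factor of epidermal differentiation, rose from 7.82 and 5.06 normalized reads to 68.6 and 71.6, a log2 fold change of 3.28 ± 0.51. Its controls lay under the filter of 10, so it was tested only because of its edited values, and no adjusted p is given. Zfp820 rose from 136 and 96.1 to 317 and 281. Among 85 tested chromatin remodelling genes 6 rose (1, 3, 4 and 10) and 1 fell (0, 1, 4 and 2). The share of chromatin remodelling genes that passed was 8.24%. Hdac1, the histone deacetylase most needed in preimplantation embryos, rose from 894 and 835 to 1792 and 1659.9, a log2 fold change of 0.997 ± 0.170 (adjusted p = 0.000219).

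Of 27 tested histone genes 7 fell (2, 2, 6 and 10 without 1 library) and 1 rose, with a median of -0.57 that became -0.14 with the length trend removed. The share of histone genes that passed was 29.6%, beside 15.3% of all tested genes. Hist1h2ae, a replication-dependent H2A gene, fell from 386 and 474 normalized reads to 114 and 171. H2afx, the H2A variant that is phosphorylated at DNA breaks, rose from 1885 and 1628 to 4398 and 2651, a log2 fold change of 0.96 ± 0.19, and without edited library 1 it was at 0.60. Histone transcripts of the replication-dependent kind mostly lack poly(A) tails, and these libraries were primed with oligo(dT).

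Of 26 genes in the table that belong to multicopy families of the 2-cell stage, 17 averaged 10 or more normalized reads, and of these 8 passed as higher (5, 4, 6 and 8 without 1 library) and none as lower. Some reached that level through the edited libraries alone, so the count is a description. Usp17lb, a deubiquitinase gene, had 1.12 and 0 normalized reads in the controls, at or under the 3-read limit, and 153 and 186 in the edited libraries. Usp17la had 1.12 and 1.26 in the controls and 34.3 and 80.8 in the edited libraries. Pramef25, of the Prame family, went from 1.12 and 3.79 to 38.1 and 95.7. All 3 were tested only because of their edited values, so their limma adjusted p is given from the fit with no filter on low values, where it was 7.23e-08, 0.000119 and 0.000173. No fold is given because the controls held so few reads. Members of these families are near-identical copies, so which copy the reads came from is uncertain.

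Of 28 tested genes of the p53 pathway 13 rose (4, 6, 9 and 12 without 1 library) and 1 fell (0, 0, 0 and 1), with a median of 0.63. Sesn2 (sestrin 2), a stress protein that limits mTORC1, rose from 92.7 and 120.2 normalized reads to 444 and 272, a log2 fold change of 1.71 ± 0.26 (adjusted p = 5.9e-05). Plk2, a kinase of the stress response, rose from 293 and 238 to 911 and 532, and Zmat3, an RNA-binding p53 target, from 162 and 154 to 436 and 335. The death genes Bbc3 (Puma) and Pmaip1 (Noxa) passed at 1.53 and 1.55. Bbc3 had an adjusted p of 0.0781 when control library 1 was left out and of 0.0793 when edited library 1 was. Without control library 1 Pmaip1 was at 0.83 with an adjusted p of 0.175. Of 24 tested genes of the Bcl2 family, caspases and inhibitors 4 rose (0, 2, 1 and 4) and 2 fell (0, 0, 2 and 4), or 5 and 1 with the same total. Of 79 tested genes of cyclins, Cdks and replication 11 rose (4, 3, 8 and 11) and 2 fell (0, 0, 0 and 7), or 15 and 0 with the same total. Of the p53, Bcl2 and cyclin lists 50%, 25% and 16.5% passed, beside 15.3% of all genes. Kif20a, a kinesin of cell division, rose from 73.8 and 62 to 188 and 186.

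Among the chromosomes the X had the lowest median fold change. The chromosomes and the X and Y genes of this paragraph and the next were chosen after their values were seen. Of 332 tested X-linked genes 70 fell (21.1%) and 8 rose, against 839 (8.11%) and 736 (7.11%) of 10351 autosomal genes. The median log2 fold change was -0.33 on the X and 0.01 on the autosomes. The difference of -0.34 between these medians ranged from -0.53 without edited library 2 to -0.20 without edited library 1, and was -0.33 with the length trend removed. With 1 library left out, 20, 21, 46 and 112 X-linked genes fell and 0, 2, 8 and 11 rose. Plp2, a small membrane protein, fell from 399 and 535 normalized reads to 82 and 153. Stag2, a cohesin subunit, fell from 1607 and 1490.0 to 744 and 566. The germline-type genes Trap1a and Magea8 fell to 23.8% and 19.2% of control. Rhox5, a homeobox gene of the reproductive X-linked cluster, went from 659 and 526 to 51.5 and 197, but robust limma gave an adjusted p of 0.19 and DESeq2 one of 0.0682. Without edited library 1 Rhox5 was at -1.57.

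All 5 tested Y-linked genes passed in the other direction. Only 3 of them were still tested without edited library 1, so the others reached the filter on mean level through that library. The count of 5 is therefore a description. All 5 also passed with the same total in every library, TMM factors and robust limma, and 4 passed with edgeR. With DESeq2, a pseudocount of 0.5 or the length trend removed, 3 of the 5 passed. Ddx3y, an RNA helicase, stood at 51.4 and 91.1 normalized reads in the controls and at 245 and 155 in the edited libraries, 2.81-fold higher (adjusted p = 0.00142), and without control library 1 its adjusted p was 0.0771. Eif2s3y, a translation initiation factor, stood at 90.5 and 109 in the controls and at 247 and 163 in the edited libraries, a log2 fold change of 1.01 ± 0.27. Without edited library 1 its adjusted p was 0.13, and without control library 1 and control library 2 it was 0.161 and 0.0599. None of the 5 passed without control library 1, 2 of them passed without control library 2, and 1 of the 3 still tested passed without edited library 1. Reads of Y-linked genes made up 0.00361% and 0.00483% of the control libraries and 0.0159% and 0.00908% of the edited libraries, and reads of X-linked genes 2.61% and 2.62% against 1.97% and 2.35%. Xist, the RNA that silences 1 X chromosome in female cells, did not pass, with 640.3 and 759 in the controls and 563 and 659.9 in the edited libraries. The X-linked gene Rlim, which encodes an activator of Xist, passed at 0.80, and without control library 1 its adjusted p was 0.208. The mix of male and female embryos and the editing cannot be told apart in these libraries. Fitted without the X and Y genes, 1666 of 11049 genes passed, 777 higher and 889 lower.

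**Figure D4:**
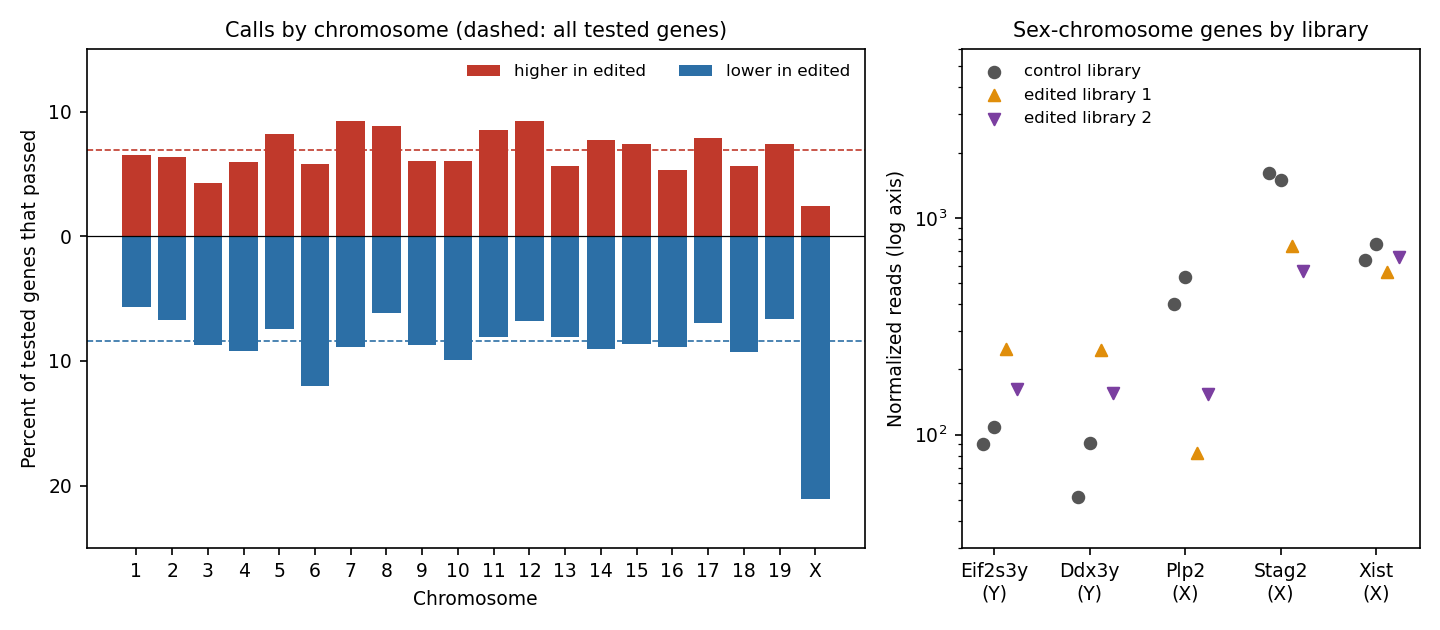
Left, percent of tested genes on each chromosome that rose (red, upward) or fell (blue, downward), with dashed lines at 6.92% and 8.38% for all tested genes. Right, normalized reads (log axis) of 5 sex-chromosome genes in the 2 control libraries (circles) and the 2 edited libraries (triangles). The X chromosome has 21.1% lower genes, and the Y-linked genes are higher in both edited libraries than in both controls.

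The edited libraries differed in the size of the change of genes that passed. For all 1742 genes both edited libraries lay on the same side of the control mean. The test that chose these genes favours this, so it is no separate evidence that the edited libraries agree. For 1261 of them edited library 1 lay farther from the controls, and for 480 edited library 2 did. The edited libraries differed by over 2-fold for 174 of these genes, and edited library 1 was the farther one for 137 of those. The 2 controls differed by over 2-fold for 102. Tead4 itself stood at 57.2 in edited library 1 and at 76.5 in edited library 2. The predicted locus Gm8016 had 12.3 and 8.85 normalized reads in the controls, 577 in edited library 1 and 49.6 in edited library 2. Its log2 fold change of 3.90 was 2.14 without edited library 1, and robust limma gave an adjusted p of 0.265. Dynlt1c, a dynein light chain gene with close copies, had 182 and 186 in the controls and 36.2 and 165 in the edited libraries, and without edited library 1 it stood at -0.16. It passed neither without a control library nor with edgeR, DESeq2 or robust limma.

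**Figure D5:**
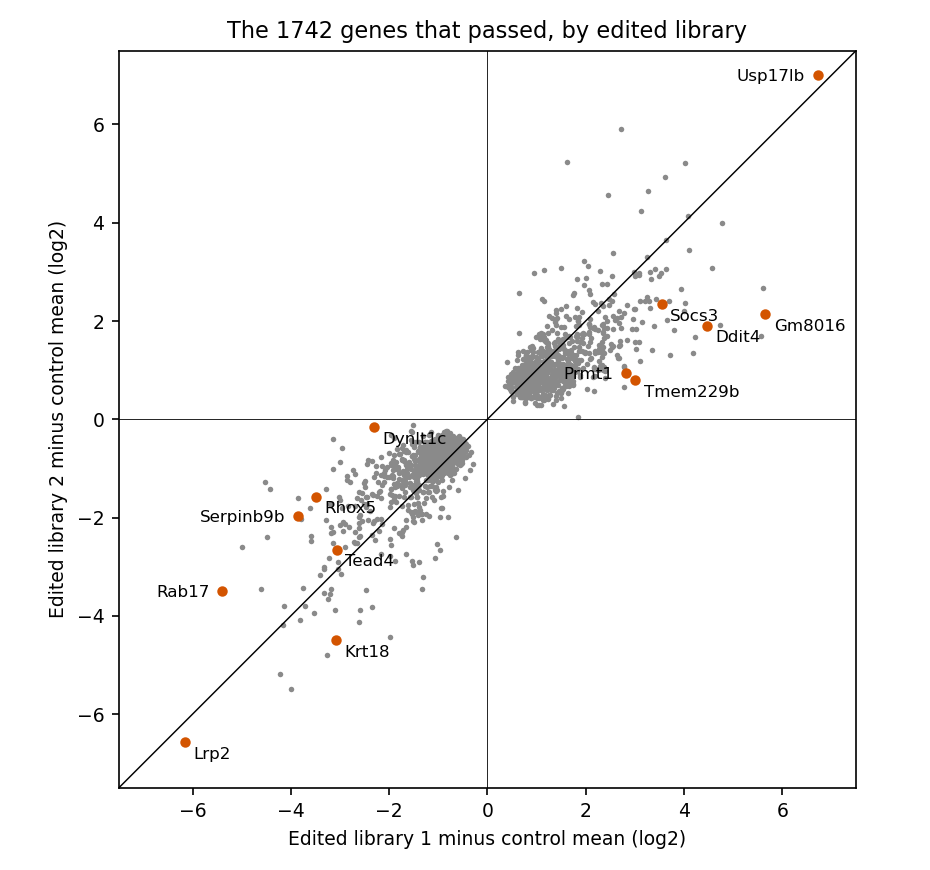
The 1742 genes that passed, by the log2 difference from the control mean in edited library 1 (horizontal) and edited library 2 (vertical), with the line of equality. All points lie in the lower left or the upper right, which choosing genes by the test favours. For library 1, 1261 lie farther from 0. Lrp2 and Usp17lb lie near the line, while Ddit4, Gm8016 and Dynlt1c lie far from it.

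No tested gene near Tead4 passed. Within 500 kb on chromosome 6 there were 8 tested genes beside Tead4. Rhno1, a DNA damage checkpoint gene, stood at -0.54 on the log2 scale (adjusted p = 0.206), and Fkbp4, an HSP90 co-chaperone gene, at -0.35 (adjusted p = 0.185). The lowest adjusted p of the 8 was 0.0817, for Pzp, an alpha 2 macroglobulin gene, at -0.94. Some of these calls turned on 1 library: without edited library 2 Rhno1 and Fkbp4 passed at -0.94 and -0.63, and Pzp passed at -1.64 without control library 2 and at -1.02 without edited library 1.

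The mouse fold changes were set beside those of bovine blastocysts of day 7.0, whose zygotes were injected with BE3 mRNA with or without guides against TEAD4. Species, stage and guides differ together and cannot be told apart. Of 8884 bovine genes tested, 1 passed (0.0113%). Of 7073 genes tested under the same symbol in both tables, the fold changes differed for 429 (6.07%), of which 395 also passed in mouse. With 1 mouse library left out, in the order given above, they differed for 120, 153, 252 and 893. Bovine TEAD4 went from a median of 92.9 normalized reads (61.2 to 125) to 37.5 (22.6 to 65.6), or -1.25 ± 0.25 on the log2 scale (n = 6 per group, limma adjusted p = 0.235). The mouse change of Tead4 was larger by 1.61 ± 0.35 on the log2 scale (adjusted p = 0.00355).

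Lrp2 shows the contrast between the 2 comparisons. Its bovine values ran from 677 to 1134 normalized reads in the controls, with a median of 893, and from 515 to 1245 in the edited samples, with a median of 1064. The bovine log2 fold change was 0.13 ± 0.20, and it differed from the mouse one by -6.50 ± 0.31 (adjusted p = 4.23e-21). DAB2 had bovine medians of 728 and 764, AP2A2 a bovine fold change of 0.11 ± 0.21, and KRT18 bovine medians of 4674 and 5534. AMOTL2 and PTGES had bovine fold changes of -0.73 ± 0.35 and -1.12 ± 0.53, in the direction of the mouse, and neither passed. Their bovine groups overlapped, and the differences of -3.97 ± 0.52 and -2.86 ± 0.59 from the mouse passed. Of the 30 mouse genes with the largest changes 16 were tested in both tables and 15 differed, but these genes were chosen for their mouse values.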

How the data were processed

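Polyadenylated RNA of mouse morulae was primed with oligo(dT) and sequenced after Smart-seq2 amplification, per the labels' protocols. Per the submitters' processing notes, Trimmomatic, HISAT2, featureCounts and DESeq2 were used with the mm10 build for mouse. No source used here states versions, gene annotation or strand setting, so values of near-identical copies, antisense genes and overlapping genes are uncertain. The deposited signal values are read counts per gene after division by the authors' size factor of each library, as the file headers and the values show. All values were whole multiples of 1 read (100% within 0.05 reads), which gave the depths. The authors' own log2 fold changes, their test statistic (treated as a score) and their p-values stand in the same deposited tables, per the file headers, and were not used.

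Of 16655 mouse genes, 11386 with a mean of at least 10 over the 4 libraries entered limma 3.58.1 in R 4.3.3 on the log2(value + 1) scale (trend on mean level, edited minus control, two-sided, Benjamini-Hochberg threshold 0.05, no replicate block). Every adjusted p without another tool's name is from limma. The tables of the 2 species were scaled separately. The species difference was the mouse minus the bovine log2 fold change over the root of the summed squared standard errors, with Satterthwaite degrees of freedom and adjustment over 7073 genes. Alternatives used pseudocounts of 0.5 and 5, no filter or a mean of at least 50, the same total per library, TMM factors, robust limma, edgeR 4.0.16 (quasi-likelihood) and DESeq2 1.42.0 on the recovered reads, a replicate block, removal of each library's trend with transcript length, and each library left out. Leaving the X and Y genes out, and leaving LOC101056014 out of the same total, were chosen after seeing the data. The scripts were tested on simulated data. Of the mouse names, 89.1% matched GENCODE M21 (mm10), which gave positions and exonic lengths, and RPKM used those lengths.

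The comparison, the gene lists and the genes were chosen with earlier results of these data known, so list counts are descriptions. Named genes are Tead4, the 15 that rose and the 15 that fell most of all genes past the threshold averaging 100 or more, with no overlap between groups and a symbol of a named gene, the 10 most abundant that passed, up to 5 members of each list, members of lists of at most 15, genes within 500 kb of Tead4 and the 10 that differed most between the edited libraries. Not every gene taken by this rule is named and not every list is described, and 1 of the 15 genes that rose most is not reported here. The same-numbered libraries of the groups deviated together with r = 0.106 across genes, and nothing in the labels ties a number to a litter or day.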

Additional observations from a re-analysis of the deposited data

Results flagged for a closer look

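The fold changes of 15 genes differed between mouse morulae and bovine blastocysts by the test of the difference (limma standard errors, adjusted over 7073 genes), each given here as the mouse minus the bovine log2 fold change. They were chosen among the 30 largest mouse changes. Of the genes that fell in mouse, the difference was -6.50 for Lrp2, -4.46 for Id2, -3.97 for Amotl2, -3.84 for Krt18, -3.81 for Dab2, -3.32 for S100a11, -2.86 for Ptges and -1.61 for Tead4. Of the genes that rose in mouse, it was 3.27 for Ddit4, 2.43 for Epn1, 2.23 for Baiap2, 2.06 for Rtkn, 1.90 for Sf3a2 (adjusted p = 0.00283), 1.90 for Aurkc and 1.75 for Prmt1 (adjusted p = 0.0147). Species, stage and guides cannot be told apart. Among the 12 bovine samples no lone value stood far from its group of 6 in 16 tests of 8 genes. The mouse groups of 2 are too small for such a test.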

How the results depend on the processing

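Among the genes named in the text 113 were refitted under each alternative, giving 1902 gene and setting pairs, of which 1852 kept both direction and side of the threshold, 46 no longer passed, 4 passed newly and 0 reversed. The rule that named these genes favours large changes that passed, so these pair counts do not describe all 1742 genes that passed. The total of 1742 ran from 580 to 2588 with 1 library left out, the number that rose from 321 to 1074 and the number that fell from 247 to 1514. The species difference count of 429 ran from 120 to 893. With every library scaled to the same total and LOC101056014 left out of it, 1276 rose and 611 fell, the median of all genes was 0.16 and 67.6% of the genes that passed were higher. Other settings kept each total within 1.5 times, with 1670 genes for edgeR, 1354 for DESeq2, 1744 for robust limma, 1708 with TMM factors and 1364 of 10688 with the length trend removed. With the replicate number as a block 1816 genes passed. The deviations of same-numbered libraries had r = 0.106 across genes, and with 2 pairs the numbers cannot be shown to pair the samples. The causes of these changes were not tested. The depth limits low genes, since 3 reads equal 2.13 to 3.79 normalized reads.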

Other observations

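In several groups of housekeeping and membrane genes the share of tested members that passed was below the 15.3% of all genes: 2.86% of aminoacyl-tRNA synthetases, 6.38% of nucleoporins, 7.89% of glycosyltransferases, 10% of autophagy genes and 4.76% of imprinted genes. Of 35 tested aminoacyl-tRNA synthetases 1 fell (0, 0, 0 and 2 without control library 1, control library 2, edited library 1 and edited library 2), and none rose (0, 0, 2 and 2). Of 47 nucleoporins and nuclear transport receptors, which build and use the pores of the nuclear envelope, 2 rose (0, 1, 1 and 3) and 1 fell (0, 0, 1 and 3). Of 38 glycosyltransferases 3 rose (1, 2, 1 and 5) and none fell, and of 30 autophagy genes 3 rose (0, 1, 1 and 5) and none fell. Of 21 imprinted genes, which are expressed from 1 parental copy, 1 fell (1, 0, 1 and 5) and none rose. Their medians lay between -0.05 and 0.22. With the same total in every library 3 aminoacyl-tRNA synthetases, 5 nucleoporins and transport receptors and 6 autophagy genes rose and none of these fell.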
